A study of Homo sapiens with 16 samples.

Results

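The 9 genes compared here set the threshold for apoptosis, and they were followed through 16 H3K27ac peak lists of MDA-MB-231 and Hs578T cells. The genes are BCL2, BCL2L1, BCL2A1, MCL1, CFLAR, XIAP, SOD2, BCL2L11 and BBC3, which are 9 of the 20033 protein-coding genes of GENCODE 44. They were chosen by name, and for each of them peaks, covered length and highest fold enrichment were recorded within 2 kb of the start site (the 5′ end of the gene record) and within the gene body extended by 50 kb on both sides, called the window here. H3K27ac, acetylation of lysine 27 of histone H3, marks active promoters and enhancers. Both lines are established human triple-negative breast cancer lines, and each came in a CRISPR control form and an Fn14 knockout (KO) form, the KO made with guides against TNFRSF12A. The study's supplement lists the Fn14 KO among CRISPR clones that were genotyped, and the number of clones behind each line is not given in the sources used here, so traits of a clone and of the genotype cannot be told apart. All 16 samples were starved in Opti-MEM for 8 h and then left untreated or given TWEAK, the ligand of Fn14, at 10 ng/ml for 48 h with replenishment after 24 h, which gave 8 groups of 2 samples. The study's methods call its cell line ChIP-seq replicates biological, without saying which cultures they came from, and p-values measure the spread between these samples.

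Mitochondrial apoptosis is decided by the BCL2 protein family. BCL2, BCL-XL (BCL2L1), BFL-1 (BCL2A1) and MCL1 hold back the pore-forming members of the family, and the BH3-only proteins BIM (BCL2L11) and PUMA (BBC3) bind and neutralise them. Further along, cFLIP (CFLAR) competes with caspase-8 at death receptors, XIAP inhibits caspases directly, and SOD2 is the manganese superoxide dismutase of mitochondria. Several of these genes are known targets of NF-kappaB, the transcription factor family that receptors of the TNF superfamily such as Fn14 activate.

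The lists held 39544 to 47197 peaks each and covered 64.2 to 88.9 Mb. They carry no read counts, so the depth is unknown. The authors' fold enrichment at start sites was lower across the genome in MDA-MB-231 Fn14 KO than in MDA-MB-231 control cells (median log2 difference -0.34 over 10570 genes, untreated), which touches each comparison of genotypes given further on. Start sites of VIM, AXL, CAV1, ZEB1 and CD44, taken as markers of mesenchymal triple-negative cells, had a peak in all 16 lists. Of the luminal markers, ESR1 and PGR had none in any list, FOXA1 had one in 2 lists, and GATA3 and TFF1 had one in all 16. TNFRSF12A itself had a start site peak in every list, and peak lists cannot show whether it was edited.

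The windows held 70 consensus regions, that is merged peaks found in at least 2 lists, of which 42 had a peak in all 16 lists. MCL1 had the most regions (13), followed by SOD2 (10), BBC3 (9) and XIAP (9), and BCL2L11 the fewest (4). The acetylated share of the window was highest at BCL2L1 (30.1 to 45.4% over the 16 lists) and MCL1 (27.2 to 41.1%), and lowest at BCL2 (2.31 to 3.27%), BCL2L11 (2.87 to 4.40%) and BCL2A1 (3.56 to 8.598%). Hence the windows of the pro-survival genes BCL2L1 and MCL1 were widely acetylated in all lists, whereas the windows of BCL2 and BCL2A1 were mostly bare. Several regions of the MCL1 window lay in ENSA or at the start of ADAMTSL4. All members except BCL2A1 had a start site peak in all 16 lists.

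The clearest changes with TWEAK were at BCL2A1, SOD2, BBC3 and CFLAR, and sequences of some of these regions are shown first. No test links their letters to the changes. The pair of BCL2A1 regions is shown because one is the promoter acetylated in TWEAK-treated control cells alone and the other is the upstream region with the same pattern. The remaining 3, in the gene bodies of BCL2A1, SOD2 and BBC3, were picked after their values were seen because they hold matches to the NF-kappaB consensus. Capitals mark motif matches on either strand, to the AP-1 motif TGANTCA or to the 10-base NF-kappaB consensus.
BCL2A1 promoter, 250 bases before the RefSeq start (GRCh38.p14, chr15:79971197-79971446, minus strand): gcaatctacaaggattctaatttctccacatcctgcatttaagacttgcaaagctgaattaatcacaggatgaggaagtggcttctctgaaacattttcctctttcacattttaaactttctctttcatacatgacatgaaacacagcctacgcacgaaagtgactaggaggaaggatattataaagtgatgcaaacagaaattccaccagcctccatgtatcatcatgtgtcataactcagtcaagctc
BCL2A1 upstream region, central 300 bases (hg38, chr15:79994642-79994941, plus strand): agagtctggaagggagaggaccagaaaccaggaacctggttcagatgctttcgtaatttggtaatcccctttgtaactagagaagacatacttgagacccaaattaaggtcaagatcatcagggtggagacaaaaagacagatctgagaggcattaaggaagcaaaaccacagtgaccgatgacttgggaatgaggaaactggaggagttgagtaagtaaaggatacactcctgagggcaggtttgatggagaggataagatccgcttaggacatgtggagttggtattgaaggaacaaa
BCL2A1 gene body region, 300 bases outside exons (hg38, chr15:79965953-79966252, plus strand): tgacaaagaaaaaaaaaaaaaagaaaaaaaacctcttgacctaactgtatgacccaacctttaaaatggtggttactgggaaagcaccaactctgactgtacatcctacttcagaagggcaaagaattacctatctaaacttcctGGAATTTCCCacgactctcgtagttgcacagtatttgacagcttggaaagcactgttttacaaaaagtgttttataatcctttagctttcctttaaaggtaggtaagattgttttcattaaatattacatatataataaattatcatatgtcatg
SOD2 far intron region, 300 bases (hg38, chr6:159716171-159716470, plus strand): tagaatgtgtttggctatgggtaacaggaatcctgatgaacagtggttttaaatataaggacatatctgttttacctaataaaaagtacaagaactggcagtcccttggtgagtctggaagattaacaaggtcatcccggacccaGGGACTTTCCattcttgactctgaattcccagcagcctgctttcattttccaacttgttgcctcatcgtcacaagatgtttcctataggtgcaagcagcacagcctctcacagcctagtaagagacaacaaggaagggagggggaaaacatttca
BBC3 gene body region, 300 bases outside exons (hg38, chr19:47227665-47227964, plus strand): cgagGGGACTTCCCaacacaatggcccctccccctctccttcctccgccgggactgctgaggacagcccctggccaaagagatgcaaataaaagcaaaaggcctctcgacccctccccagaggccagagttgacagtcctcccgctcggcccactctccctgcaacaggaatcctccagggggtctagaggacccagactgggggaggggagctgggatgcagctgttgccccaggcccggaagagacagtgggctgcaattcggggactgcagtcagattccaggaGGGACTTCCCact

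No AP-1 or NF-kappaB match was found in the BCL2A1 promoter or in the upstream region. In central 300-base windows, 26.1% of all consensus regions held the AP-1 motif and 5.54% the NF-kappaB consensus. Of the regions gained in control cells of both lines, the shares were 33.4% and 24.9%. The 250 bases before the start were available from RefSeq for 8 of the 9 members, of which 1, BBC3, held an AP-1 match (6.57% of 35114 genes) and none an NF-kappaB match (5.21%). The BBC3 gene body region, 8400 bp long, had 8 NF-kappaB matches over its length, overlapping matches counted singly, among them the same 10 bases at either end of the 300 shown. Of equally long windows centred on all consensus regions, 56.1% had at least 1 match and 0.194% had at least 8. At the lengths of the BCL2A1 and SOD2 regions, which had 1 match each, 33.6% and 27.6% of windows had at least 1. The CFLAR gene body region and the near intron region of SOD2 described further on, which had the largest fitted rises among the members' regions with a peak in all 16 lists, had no NF-kappaB match over their length, and held 7 and 2 AP-1 matches. The BCL2A1 gene body region had 4 AP-1 matches beside its NF-kappaB match. A match describes letters and is no evidence of binding.

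BCL2A1 (ENSG00000140379.9, chr15:79960892-79971196, minus strand), whose product BFL-1 protects cells from mitochondrial apoptosis, showed the largest change in covered length of the 9 genes on the log2 scale that was tested. Peaks covered 3.97 and 4.20 kb of its window without TWEAK and 8.91 and 8.77 kb with it in MDA-MB-231 control lists. In Hs578T control lists they covered 4.90 and 4.56 kb untreated and 9.48 and 9.08 kb with TWEAK. The 8 Fn14 KO lists lay between 3.93 and 5.27 kb whatever the treatment, so TWEAK-treated control lists stood apart from all 12 others. On the log2(bp + 1000) scale the TWEAK effect in control cells was 0.90 ± 0.08 (SE, limma, adjusted p = 1.25e-05), a 1.86-fold rise of bp + 1000. In Fn14 KO cells it was 0.02 ± 0.08, and the effects differed by 0.88 ± 0.11 (limma, adjusted p = 0.000853).

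The TWEAK-dependent BCL2A1 peaks lay at 3 regions. At the start site (chr15:79970844-79971939) a peak was called in the 4 TWEAK-treated control lists alone, with fold enrichments of 3.79 and 3.62 in MDA-MB-231 and 5.57 and 5.52 in Hs578T. A region between genes 23.6 kb upstream (chr15:79994390-79995193) was present in the same 4 lists, at 2.92 and 4.47 in MDA-MB-231 and 2.78 and 2.71 in Hs578T. Both are weak peaks. The gene body region (chr15:79965162-79968596, touching an annotated exon) was stronger. With TWEAK it reached 13.2 and 14.6 in control MDA-MB-231, and it had no peak in the other 6 MDA-MB-231 lists. In Hs578T control cells it stood at 12.7 and 14.3 with TWEAK and at 2.81 and 3.05 untreated, and 2 of the 4 Hs578T Fn14 KO lists had a peak there, at 2.85 and 3.53. A further region 39.3 kb upstream, acetylated in all 16 lists, rose 1.49-fold with TWEAK in control cells (0.58 ± 0.11 SE on the log2 scale, limma, adjusted p = 1.49e-05). Because BCL2A1 lacked a start site peak in 12 lists, its start site was not part of the fit of start sites.

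**Figure D1:**
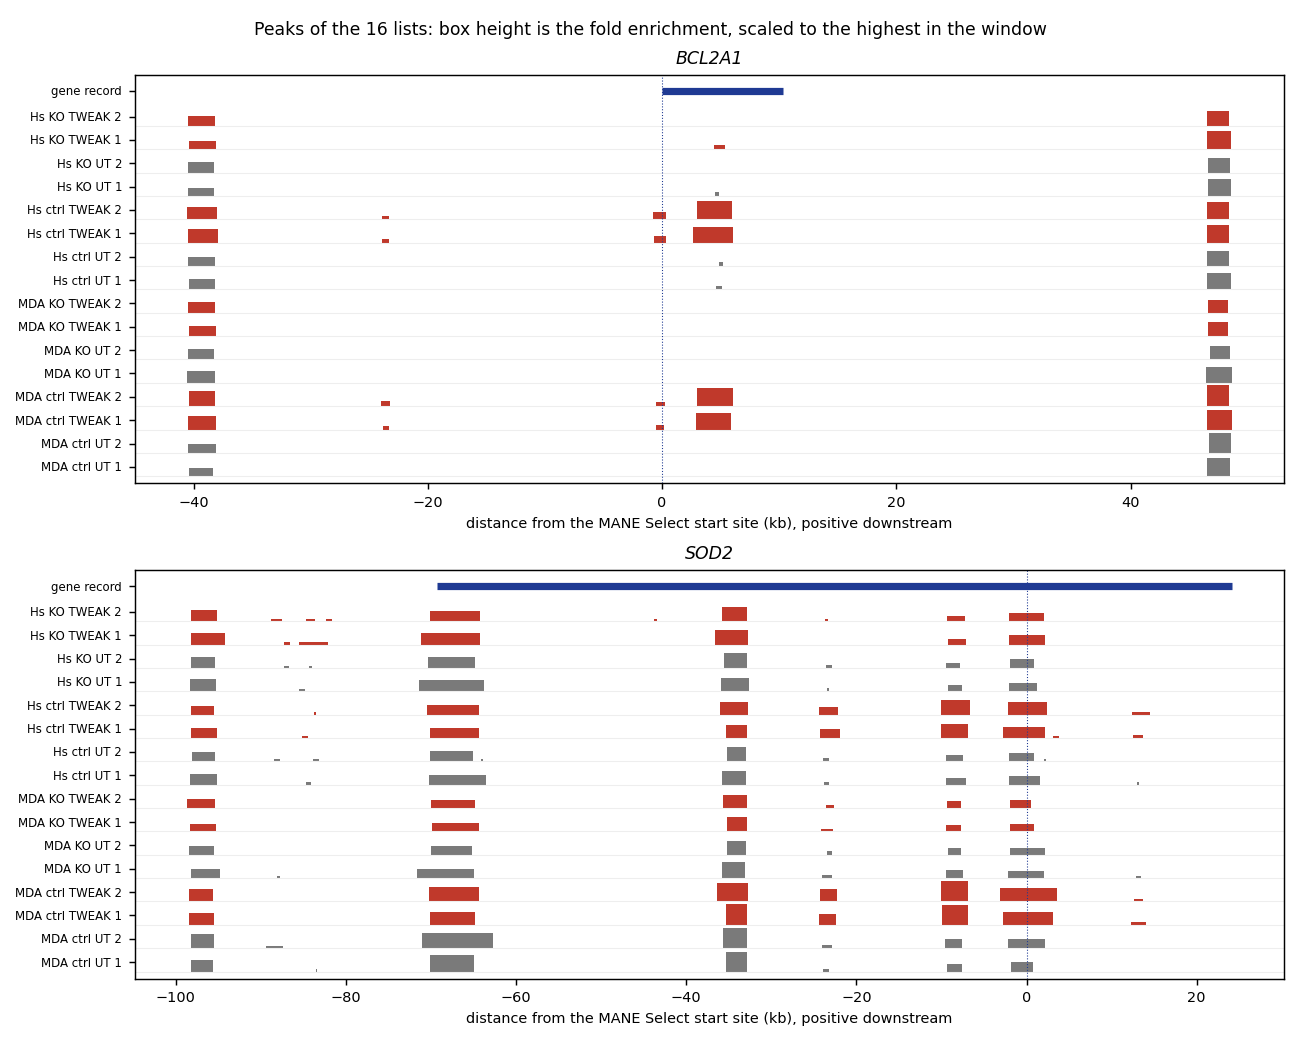
Peaks of all 16 lists in the BCL2A1 and SOD2 windows, drawn by distance from the MANE Select start site in kb (x axis), 1 row per list, with box height giving fold enrichment and red marking TWEAK. At BCL2A1 the start site and upstream boxes occur in the 4 TWEAK-treated control lists alone, and at SOD2 the boxes between the start and 25 kb upstream are taller in those lists.

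SOD2 (ENSG00000291237.1, chr6:159669069-159762529, minus strand) gained acetylation at its promoter and in the intron upstream of it. The GENCODE record of SOD2 begins 69288 bp before the start of its MANE Select transcript, inside the promoter region of ACAT2, so values at the MANE Select start are given for this gene. There the fold enrichment was 11.2 and 11.3 in untreated and 15.2 and 16.3 in TWEAK-treated MDA-MB-231 control lists, and 10.1 and 10.1 against 12.8 and 15.1 in Hs578T. Fn14 KO lists had 8.64 to 11.4, below every TWEAK-treated control list. The TWEAK effect in control cells was 0.47 ± 0.09 (SE) on the log2 scale (limma, adjusted p = 0.000312) and it exceeded that of Fn14 KO cells by 0.39 ± 0.13 (limma, adjusted p = 0.0481). In the fit over regions, the difference at the SOD2 promoter peak was called in 11 of 16 fits that each left out 1 list (0.34 to 0.45 over the 16), and lost without the second TWEAK list of either line and genotype or the second untreated Hs578T Fn14 KO list. The near intron region, 8.34 kb upstream of that start (chr6:159699880-159703291), moved further, from 9.35 and 11.7 to 24.5 and 24.8 in MDA-MB-231 control lists. In Hs578T control lists it went from 8.53 and 7.95 to 16.8 and 17.3. The Fn14 KO lists held 6.03 to 9.51. This was a 2.21-fold rise in control cells (1.15 ± 0.11 SE, limma over 28337 regions, adjusted p = 6.68e-15), larger than in Fn14 KO cells by 1.25 ± 0.15 (limma, adjusted p = 3.69e-10).

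The far intron region of SOD2, 23.1 kb upstream (chr6:159715130-159717628), had the steepest contrast. Control MDA-MB-231 lists had a fold enrichment of 2.91 and 3.41 untreated and 13.5 and 15.7 with TWEAK. Control Hs578T lists had 3.59 and 3.56 untreated and 11.02 and 9.504 with TWEAK. Fn14 KO lists of either line had 2.76 to 4.13, except the first TWEAK replicate of Hs578T Fn14 KO, which had no peak, so the region was not in the fit over regions. Over the whole window of SOD2 the covered length rose by 0.35 ± 0.11 (SE) in control cells (limma, adjusted p = 0.0464), but the untreated MDA-MB-231 control lists, at 15.6 and 23.4 kb, stood far apart, the second close to the treated ones. The SOD2 call held in 3 of 16 fits that each left out 1 list, with effects of 0.21 to 0.49, and without the first untreated MDA-MB-231 control list it was 0.21 (limma, adjusted p = 0.141). The difference from Fn14 KO cells was 0.27 ± 0.16 (limma, adjusted p = 0.401).

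BBC3 (ENSG00000105327.18, chr19:47220822-47232766, minus strand), which encodes the death-promoting PUMA, had the largest change at a start site. The fold enrichment was 7.78 and 9.67 in untreated and 21.8 and 22.2 in TWEAK-treated MDA-MB-231 control lists. In Hs578T control lists it was 8.882 and 7.5004 untreated and 20.1 and 15.1 with TWEAK. All 8 Fn14 KO lists lay between 7.13 and 8.74, within the untreated control range or just below it. The effect was a 2.32-fold rise in control cells (1.22 ± 0.11 SE, limma, adjusted p = 6.87e-10) and -0.10 ± 0.11 in Fn14 KO cells, a difference of 1.32 ± 0.15 (limma, adjusted p = 4.27e-07). The values depend on the start chosen. The MANE Select start lies 1567 bp inside the record, and its 2 kb reach a neighbouring taller peak in some lists. There BBC3 had 7.78 and 9.67 untreated and 39.6 and 40.8 with TWEAK in control MDA-MB-231. In these lists the 2 kb held 1 peak untreated and 2 with TWEAK. The highest fold enrichment of their whole window was already 30.1 and 32.4 untreated. Control Hs578T lists had 17.4 and 7.5004 untreated and 20.1 and 15.1 with TWEAK at the MANE Select start. Among Hs578T Fn14 KO lists 1 untreated list had 19.9, so the Hs578T groups overlapped. With this start the effect in control cells of both lines was 1.41 ± 0.19 (SE, limma, adjusted p = 2.38e-06) and the difference from Fn14 KO cells 1.83 ± 0.27 (limma, adjusted p = 3.91e-05), while in Hs578T alone the effect in control cells did not pass (0.60 ± 0.27, limma, adjusted p = 0.202). At the record start, in the first TWEAK replicate of Hs578T control cells, 1 merged peak spanned the gene, so its value of 20.1 belongs to the whole peak. The covered length of the BBC3 window did not pass the test (-0.09 ± 0.07, limma, adjusted p = 0.416). The change that passed was thus one of fold enrichment at the start site. Whether the peak there rose or changed its extent was not tested. Over the whole 8400 bp region around the start, the highest fold enrichment of BBC3 rose 1.34-fold in control cells (0.42 ± 0.09 SE, limma, adjusted p = 0.000101).

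Around BBC3, acetylation went in both directions. The region between genes 11.3 kb upstream of the start (chr19:47242544-47245508) rose 1.75-fold in control cells (0.80 ± 0.11 SE, limma, adjusted p = 8.69e-09), from 5.81 and 7.26 to 13.2 and 15.02 in MDA-MB-231 and from 6.69 and 8.43 to 10.6 and 10.5 in Hs578T. A region 43.5 kb downstream, in an intron of SAE1, fell to 0.684 of its untreated level (-0.55 ± 0.12 SE, limma, adjusted p = 0.000124). Its values went from 7.05 and 6.68 to 4.55 and 4.07 in MDA-MB-231 and from 5.42 and 5.96 to 4.20 and 4.29 in Hs578T. A neighbouring region that touches an exon of SAE1, 23.1 kb downstream of the BBC3 start, rose 1.51-fold (0.59 ± 0.12 SE, limma, adjusted p = 3.17e-05).

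**Figure D2:**
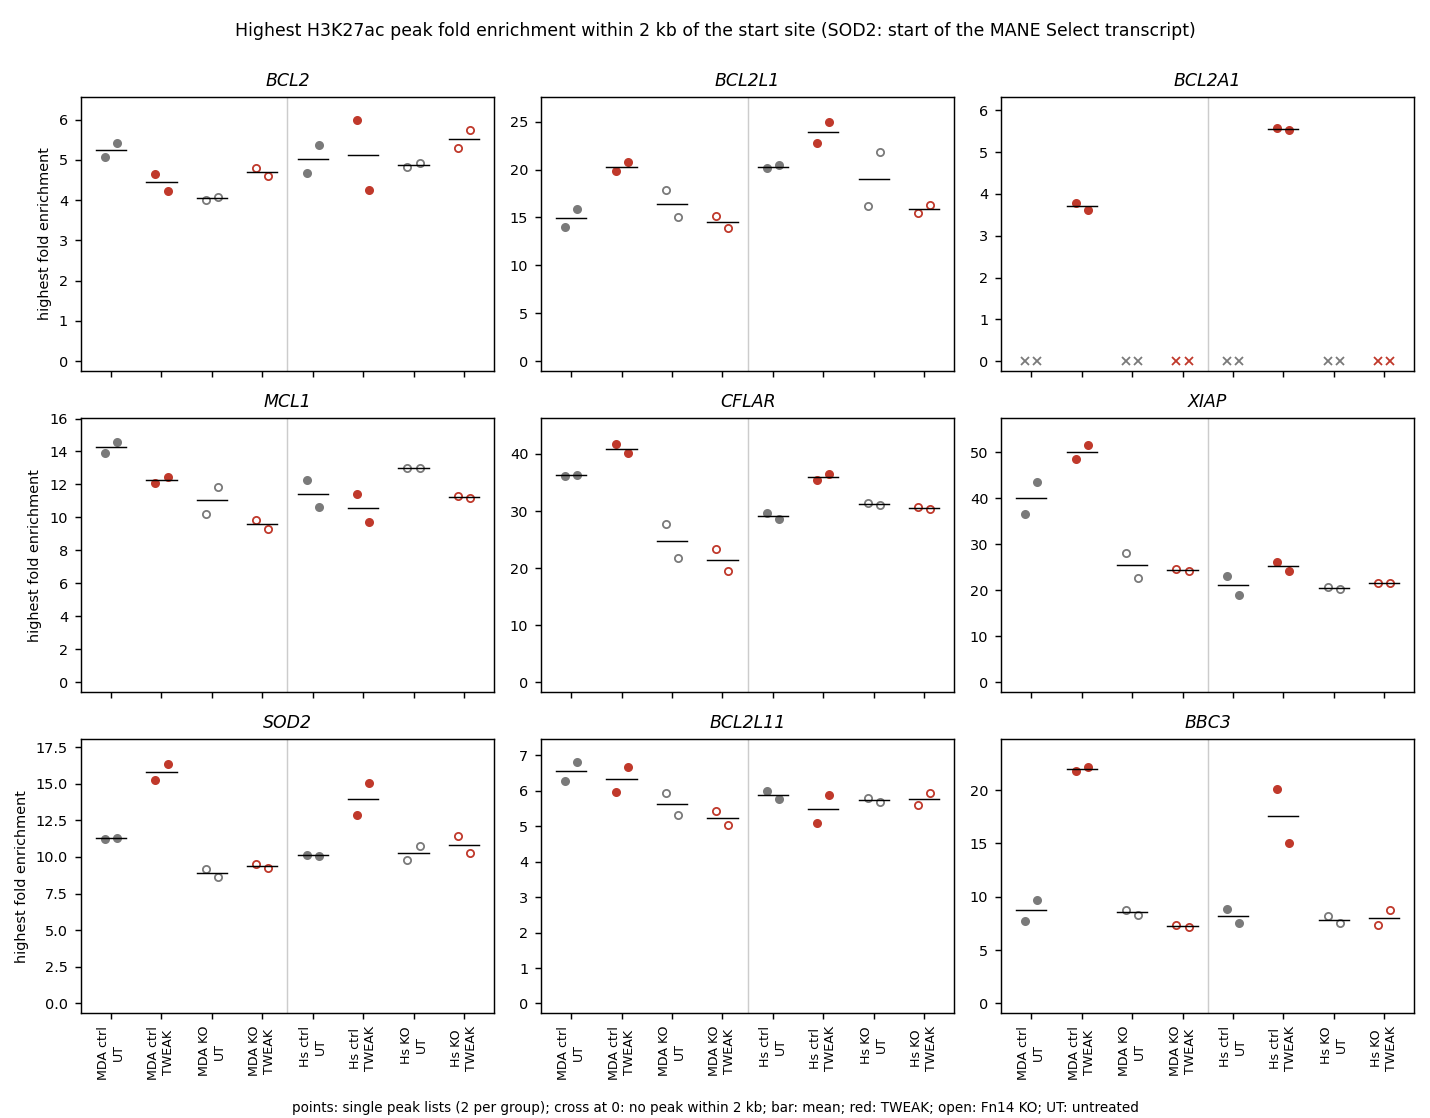
Highest fold enrichment within 2 kb of the start site (y axis) of the 9 genes in the 8 groups of 2 lists (x axis), with points for single lists, bars for means, red for TWEAK and open symbols for Fn14 KO. SOD2 is drawn at its MANE Select start and the other genes at their record start. BBC3 reaches 15.1 to 22.2 in TWEAK-treated control lists and at most 9.67 elsewhere at its record start, a separation that does not hold in Hs578T at the MANE Select start (17.4 and 19.9 in 2 untreated lists), and BCL2A1 has no peak outside those lists.

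BCL2L11 (ENSG00000153094.25, chr2:111119378-111168444, plus strand), the other BH3-only gene, changed away from its promoter. Its start site enrichment was 6.28 and 6.81 untreated and 5.97 and 6.68 with TWEAK in control MDA-MB-231, and 5.98 and 5.75 against 5.10 and 5.87 in Hs578T (-0.08 ± 0.11 SE, limma, adjusted p = 0.660). The window, by contrast, was covered over 4.28 and 4.96 kb untreated and 6.09 and 6.04 kb with TWEAK in MDA-MB-231 control lists, and over 5.77 and 4.67 kb against 6.56 and 6.35 kb in Hs578T. This was a rise of 0.30 ± 0.08 (SE) on the log2 scale (limma, adjusted p = 0.0251), which exceeded that in Fn14 KO cells by 0.43 ± 0.12 (limma, adjusted p = 0.0557). Fn14 KO lists covered 4.30 to 5.64 kb. With windows of 10 or 100 kb in place of 50 kb the covered length no longer passed the test (0.14, limma, adjusted p = 0.245, and 0.23, limma, adjusted p = 0.0610), nor did it without 1 of 6 of the 8 control lists (0.24 to 0.31, limma, adjusted p = 0.0572 to 0.113).

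CFLAR (ENSG00000003402.21, chr2:201116154-201176687, plus strand), whose product blocks caspase-8 activation, carried the tallest TWEAK-dependent peak of the 9 windows. The region lay 33.7 kb inside the gene (chr2:201146451-201153275, touching an annotated exon). Its fold enrichment was 18.7 and 22.7 untreated and 59.6 and 58.9 with TWEAK in control MDA-MB-231. In control Hs578T it was 22.1 and 17.8 untreated and 43.4 and 42.2 with TWEAK. Fn14 KO lists had 13.6 to 20.4. The region was the tallest of the CFLAR window in TWEAK-treated control lists alone, and in all other lists the start site peak was taller. It was named for that height, so the test that follows is not independent of the choice. The rise was 2.49-fold in control cells (1.32 ± 0.09 SE, limma, adjusted p = 7.26e-21) and differed from that of Fn14 KO cells by 1.33 ± 0.13 (limma, adjusted p = 1.38e-13). At the CFLAR start site the change was smaller. Values went from 36.2 and 36.3 to 41.7 and 40.1 in MDA-MB-231 and from 29.6 and 28.5 to 35.3 and 36.5 in Hs578T (0.24 ± 0.08 SE, limma, adjusted p = 0.0382). Divided by the median of each list, this was no longer called (0.17, limma, adjusted p = 0.142), and without any 1 of the 8 control lists it was not called either (0.23 to 0.26, limma, adjusted p = 0.0688 to 0.122). Of the 6 CFLAR regions, 4 rose in the fit over regions, and the covered length of its window did not pass the test (0.15 ± 0.07, limma, adjusted p = 0.138).

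**Figure D3:**
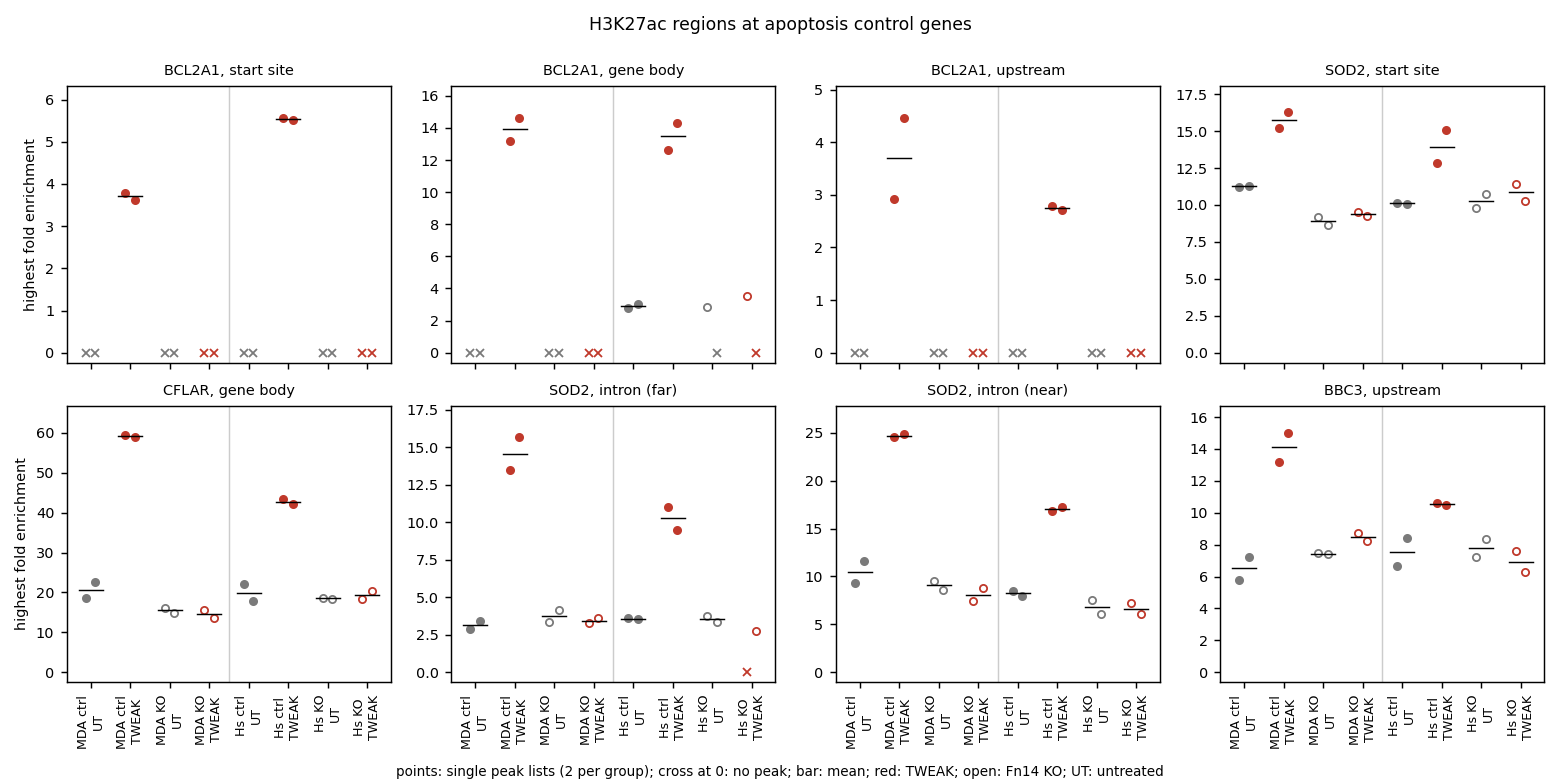
Highest fold enrichment (y axis) of 8 regions at BCL2A1, CFLAR, SOD2 and BBC3 in the 8 groups of 2 lists (x axis), with crosses at 0 for lists without a peak. In each panel the 4 TWEAK-treated control lists lie above the other lists.

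XIAP (ENSG00000101966.14, chrX:123859712-123913972, plus strand) and BCL2L1 (ENSG00000171552.14, chr20:31664452-31723989, minus strand) changed modestly at their start sites. The start site enrichment of XIAP was 36.7 and 43.5 untreated and 48.5 and 51.6 with TWEAK in control MDA-MB-231, and 23.04 and 19.1 against 26.2 and 24.1 in Hs578T (0.29 ± 0.09 SE, limma, adjusted p = 0.0147). The difference from Fn14 KO cells did not pass (0.28 ± 0.12, limma, adjusted p = 0.161), nor did the covered length of its window (0.30 ± 0.10, limma, adjusted p = 0.0569). Divided by the list median, the start site effect was 0.22 (limma, adjusted p = 0.0622), and it was not called without the first untreated (0.23, limma, adjusted p = 0.110) or second TWEAK (0.27, limma, adjusted p = 0.0711) list of control MDA-MB-231, or without the second untreated (0.23, limma, adjusted p = 0.115) or first TWEAK (0.26, limma, adjusted p = 0.0725) list of control Hs578T. The clearest XIAP change lay upstream of the gene, between genes (chrX:123812807-123819468), where the enrichment went from 9.02 and 12.98 to 22.6 and 15.3 in MDA-MB-231 and from 8.47 and 7.91 to 12.1 and 14.4 in Hs578T (0.73 ± 0.12 SE, limma, adjusted p = 2.20e-07). Fn14 KO lists had 5.80 to 8.48 there. At BCL2L1 the start site went from 14.0 and 15.9 to 19.9 and 20.8 in MDA-MB-231 and from 20.1 and 20.4 to 22.8 and 25.0 in Hs578T (0.34 ± 0.09 SE, limma, adjusted p = 0.00891). In Fn14 KO cells the fitted effect at BCL2L1 was -0.21 ± 0.09, and the effects differed by 0.55 ± 0.13 (limma, adjusted p = 0.00654). Without the first untreated MDA-MB-231 control list the BCL2L1 effect in control cells was 0.29 (limma, adjusted p = 0.0552). Without both untreated MDA-MB-231 Fn14 KO lists, the difference rests on Hs578T and was 0.48 (limma, adjusted p = 0.175).

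BCL2 (ENSG00000171791.14, chr18:63123346-63320128, minus strand) and MCL1 (ENSG00000143384.14, chr1:150560895-150579738, minus strand), the remaining pro-survival genes, were not called for TWEAK by covered length or at the start site. At the BCL2 start site the control lists had 5.06 and 5.42 untreated and 4.65 and 4.23 with TWEAK in MDA-MB-231, and 4.68 and 5.38 against 5.98 and 4.25 in Hs578T (-0.12 ± 0.12 SE, limma, adjusted p = 0.515). An intronic region of BCL2 57.6 kb inside the gene was gained with TWEAK in control MDA-MB-231, at 3.25 and 3.15, and had no peak in any other list. MCL1 had 13.9 and 14.6 untreated and 12.1 and 12.5 with TWEAK at its start site in control MDA-MB-231, and 12.3 and 10.6 against 11.5 and 9.72 in Hs578T (-0.16 ± 0.09 SE, limma, adjusted p = 0.219). The region of the MCL1 window with the highest value in any list lay in an intron of ENSA, 33.2 kb upstream of the MCL1 start. It had 35.2 to 41.1 in control and 15.9 to 23.1 in Fn14 KO lists of MDA-MB-231. The 8 Hs578T lists had 28.4 to 35.7. It was not the tallest of the window in every list. The tallest in the BCL2 window was the promoter of KDSR (6.11 to 11.2), and the tallest of SOD2 a start shared with WTAP (15.3 to 25.5). None of these 3 was called for TWEAK in control cells (limma, adjusted p = 0.273, 0.159 and 0.638). Another region in an ENSA intron, 25.3 kb upstream of MCL1, rose in control cells, from 27.7 and 24.9 to 30.8 and 32.9 in MDA-MB-231 and from 25.9 and 24.0 to 31.4 and 31.3 in Hs578T (0.30 ± 0.09 SE, limma, adjusted p = 0.00363), more than in Fn14 KO cells by 0.40 ± 0.13 (limma, adjusted p = 0.0115), and both calls held in all 16 fits that left out 1 list. A region between genes 42.9 kb downstream of the MCL1 start fell (-0.31 ± 0.12 SE, limma, adjusted p = 0.0374), a call that held in 11 of those 16 fits (-0.47 to -0.14). It was lost without either untreated or the first TWEAK list of control MDA-MB-231, and without the first untreated or the first TWEAK list of control Hs578T. Neighbouring coding genes begin in every window except that of BCL2L11, so acetylation there need not belong to the gene the window is named for. The standard errors of BCL2 and MCL1 leave room for modest changes. Acetylation per cell and the share of acetylated cells cannot be told apart in bulk chromatin at any of the 9 genes.

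**Figure D4:**
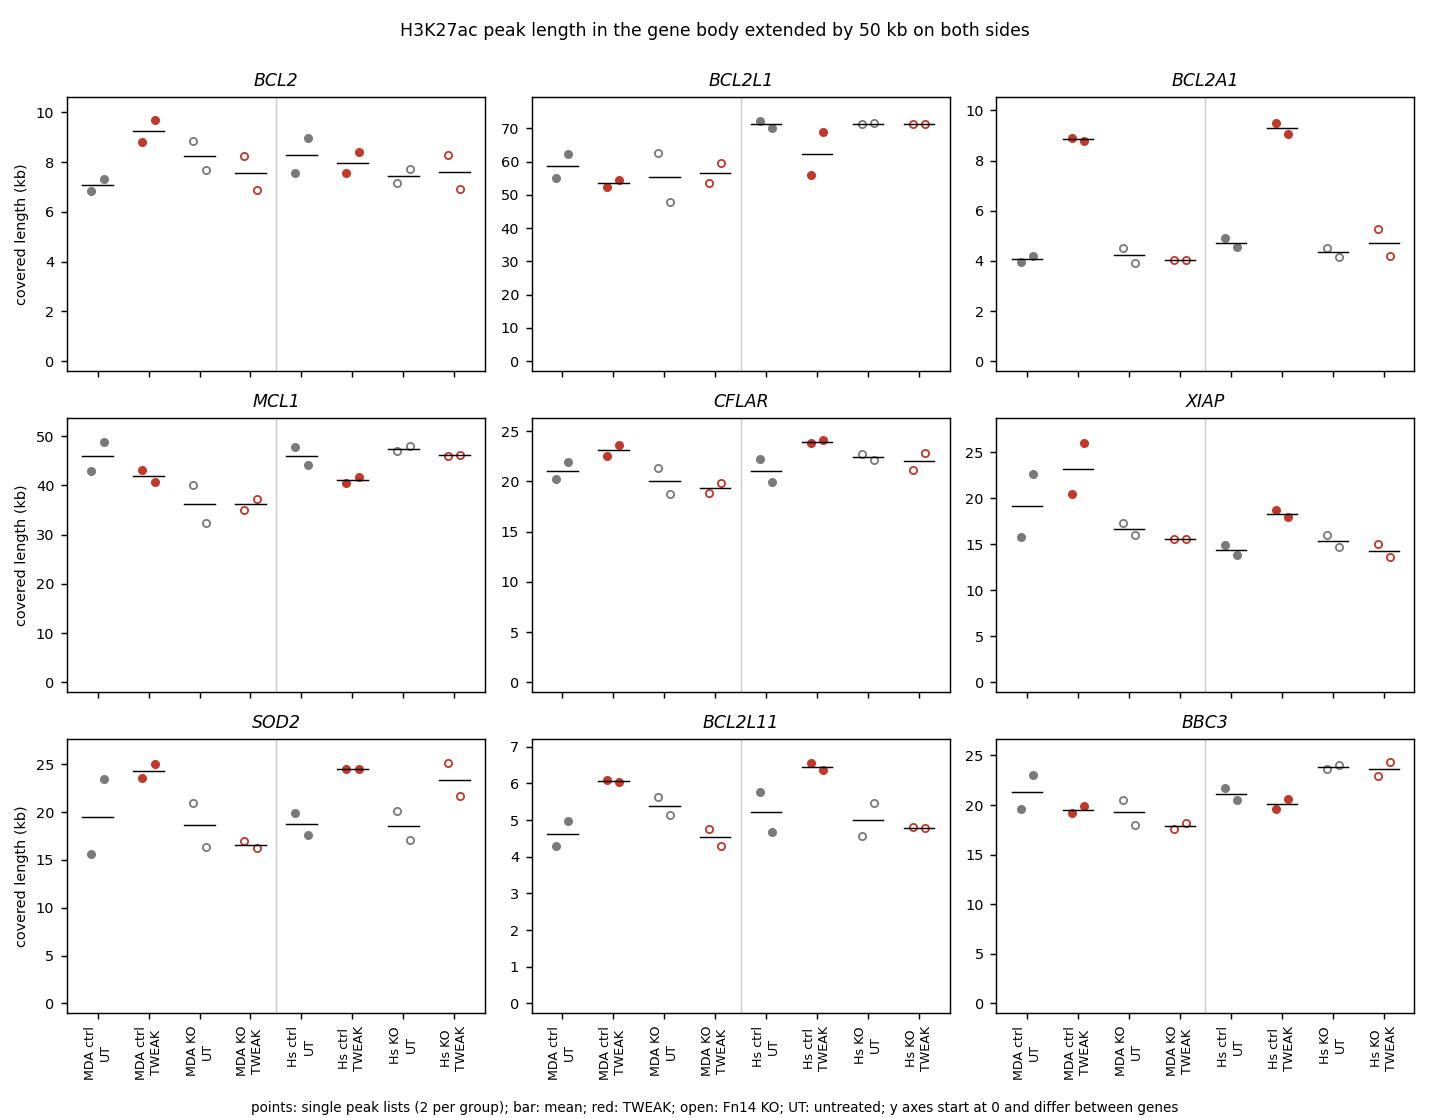
Length under peaks in the gene body extended by 50 kb (y axis, kb) for the 9 genes in the 8 groups of 2 lists (x axis). BCL2A1 is at 8.77 to 9.48 kb in TWEAK-treated control lists and at 3.93 to 5.27 kb in the other 12, whereas the groups overlap at BBC3, MCL1 and BCL2L1.

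Taking the 9 genes as a list, 3 rose in covered length with TWEAK in control cells (BCL2A1, BCL2L11 and SOD2) and none fell, where 17.9% of 17915 genes were called and 6.84% rose. The median effect over the 9 was 0.15, against -0.05 over all genes. At start sites 4 of the 8 that could be tested rose (BBC3, BCL2L1, CFLAR and XIAP), where 21.1% of 10570 genes were called and 13.8% rose, with a median of 0.08 against 0.05. In all start site counts of this paragraph SOD2 stands at the ACAT2 promoter, where its record begins. At its MANE Select start SOD2 rose, and its difference from Fn14 KO cells passed. In Fn14 KO cells limma called none of the 9 by covered length and none of the 8 at start sites, as it did for all genes (0% in both fits), although 2 of the 8 start sites had an unadjusted p below 0.05. None of the 9 had one by covered length. The difference of the TWEAK effects between genotypes was called for 1 gene by covered length (BCL2A1, 4.93% of all genes, 2.70% with a larger effect in control cells) and for 3 at start sites (BBC3, BCL2L1 and CFLAR, 10.3%, 7.64% with a larger effect in control cells). Of the 42 regions present in all lists, 17 rose and 2 fell with TWEAK in control cells. Together they are close to the 42.1% called among all 28337 such regions, of which 26.0% rose. None was called in Fn14 KO cells (0% of all regions, 1 of the 42 with an unadjusted p below 0.05) and 14 had a difference of effects that passed (28.6% of all regions).

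By presence of peaks, 7 of the 70 regions were gained with TWEAK in control MDA-MB-231 (10.0%, against 5.58% of all 55219 consensus regions) and 1 was lost (1.43%, against 4.49%). In Hs578T control cells 3 were gained (4.29%, against 5.09%) and 1 was lost (1.43%, against 4.65%). Of these, 3 were gained in both lines (2.48% of all regions), among them the start site and upstream regions of BCL2A1, and no region was lost in both (1.34%). In MDA-MB-231 Fn14 KO cells none was gained (0.321%) and 1 was lost (1.35%), and in Hs578T Fn14 KO cells 2 were gained (1.05%) and none was lost (0.829%). No difference between the lines in the TWEAK effect in control cells was called, with 0 of 9 by covered length (limma, 1 with an unadjusted p below 0.05, 0.0949% of all genes called) and 0 of 8 at start sites (limma, none with an unadjusted p below 0.05, 0.0378% of all genes). At the MANE Select start of BBC3 the effect was lower in Hs578T by a log2 difference of -1.61 ± 0.39, which did not pass (limma, adjusted p = 0.412, unadjusted p = 0.000226).

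**Figure D5:**
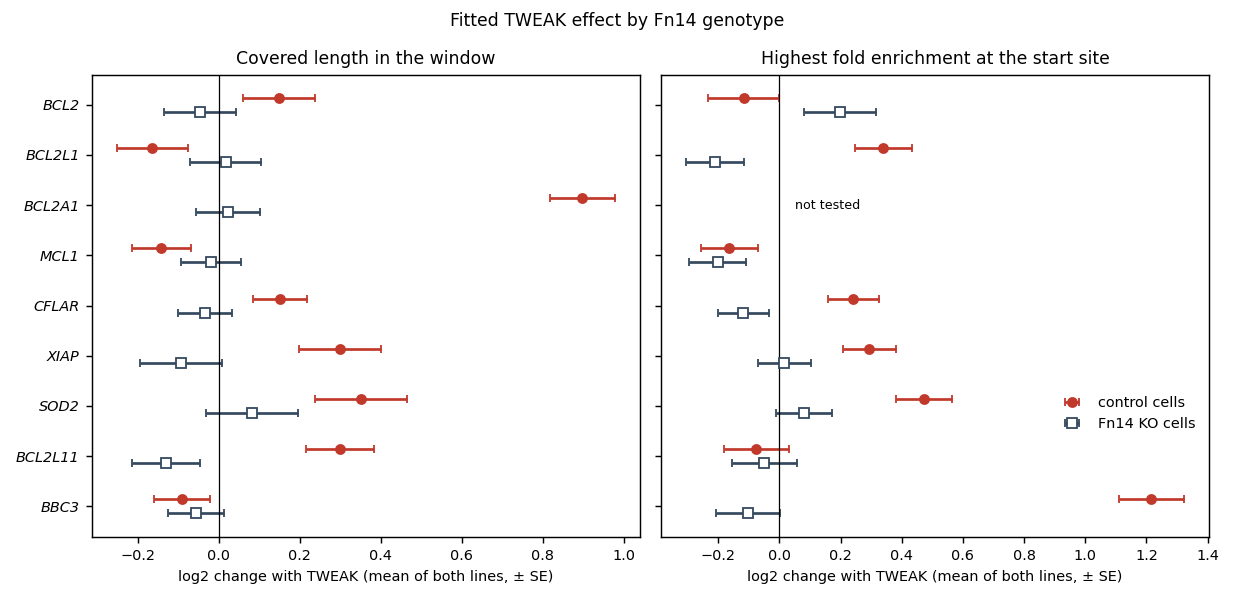
Fitted log2 change with TWEAK (x axis, mean of both lines, bars ± SE) in control cells (filled circles) and Fn14 KO cells (open squares) for the 9 genes, by covered length and by start site enrichment. On the right SOD2 is drawn at its MANE Select start and not at its record start. BCL2A1 stands out on the left at 0.90 and BBC3 on the right at 1.22, and every Fn14 KO estimate lies between -0.21 and 0.20.

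Fn14 genotype was next compared without TWEAK, in comparisons that share the untreated control lists with those of TWEAK and of the lines. No member was called by covered length (limma, 0 of 9 called and 0 with an unadjusted p below 0.05, 0.575% of all genes called). Start site enrichment, averaged over both lines, was called lower in Fn14 KO cells at 2 of 8 members (14.7% of all genes, 14.5% lower, whose median was -0.14), XIAP by -0.35 ± 0.09 (SE, limma, adjusted p = 0.0104) and SOD2, at the ACAT2 promoter where its record begins, by -0.31 ± 0.09 (limma, adjusted p = 0.0222). At the MANE Select start SOD2 was not called (-0.16 ± 0.09, limma, adjusted p = 0.226). Without both untreated MDA-MB-231 Fn14 KO lists, XIAP was at -0.03 (limma, adjusted p = 0.944) and the ACAT2 promoter at 0.23 (limma, adjusted p = 0.494). In MDA-MB-231 alone 4 of 8 were lower (CFLAR, MCL1, SOD2 and XIAP), where 48.5% of all genes were called, 48.0% as lower, and their median was -0.34. In Hs578T alone none was called (limma, 0 with an unadjusted p below 0.05, 0.142% of all genes), with a median of 0.07 over all genes. The genotype effects of the 4 genes differed between the lines (36.0% of all genes did, 35.6% with the higher value in Hs578T). At XIAP the untreated values were 36.7 and 43.5 in control and 28.2 and 22.6 in Fn14 KO cells of MDA-MB-231. With each value divided by the median of its list, the MDA-MB-231 difference remained called at CFLAR (-0.43, limma, adjusted p = 0.00799), XIAP (-0.53, limma, adjusted p = 0.00253) and the ACAT2 promoter of SOD2 (-0.71, limma, adjusted p = 0.000188), but not at MCL1 (-0.24, limma, adjusted p = 0.165). Whether the lower enrichment of the MDA-MB-231 Fn14 KO lists as a whole has a part in these values was not tested beyond this scaling.

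The lines differed before treatment at start sites. In untreated control cells no member was called by covered length between Hs578T and MDA-MB-231 (limma, 0 of 9 called, 2 with an unadjusted p below 0.05, 5.31% of all genes called). At start sites 4 of 8 were called, as were 38.9% of all genes, which had a median difference of -0.26. BCL2L1 was higher in Hs578T by 0.44 ± 0.13 (SE, limma, adjusted p = 0.00959), against the general direction, but not without the first untreated MDA-MB-231 control list (0.35, limma, adjusted p = 0.0896) or the second of Hs578T (0.43, limma, adjusted p = 0.0585). XIAP was lower there by a log2 difference of -0.93 ± 0.12 (limma, adjusted p = 1.94e-06), from 36.7 and 43.5 in MDA-MB-231 to 23.04 and 19.1 in Hs578T. CFLAR was lower by -0.32 ± 0.12 (limma, adjusted p = 0.0324), near the general shift, and was not called once divided by the list median (-0.23, limma, adjusted p = 0.138). SOD2 differed at the ACAT2 promoter (-0.70 ± 0.13, limma, adjusted p = 9.86e-05) and not at its MANE Select start (-0.16 ± 0.13, limma, adjusted p = 0.353).

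A wider list of 48 apoptosis genes, members included, gave the setting. By covered length 47 could be tested, of which 8 rose and 4 fell with TWEAK in control cells, and 35 did not pass. Of all 17915 genes, 6.84% rose and 1980 fell. None of the 47 passed in Fn14 KO cells (0% of all genes). Of 5 inhibitors of apoptosis tested 2 rose, of 10 genes of death receptor signalling 2 rose and 1 fell, of 9 caspase and apoptosome genes 1 rose and 2 fell, and of 8 BH3-only genes 1 rose and 1 fell. Among 6 pro-survival BCL2 family genes BCL2A1 alone rose, and none of the 3 pore-forming genes passed. At start sites 14 of 38 rose and 3 fell (of all 10570 genes, 13.8% rose and 767 fell). There 5 of 8 genes of death receptor signalling rose (CFLAR, FADD, TNFAIP3, TNFRSF10A and TNFRSF10B) and RIPK1 fell, 3 of 5 inhibitors of apoptosis rose, BCL2L1 rose of 4 pro-survival genes, and BAX, encoding a pore-forming protein, rose of 2 tested. Of 3 antagonists of inhibitors of apoptosis 2 rose, of 5 BH3-only genes BAD and BBC3 rose and BMF fell, and of 9 caspase and apoptosome genes CASP6 fell. By covered length TNFAIP3, the A20 ubiquitin-editing inhibitor of NF-kappaB, changed most, from 2.63 to 4.52 kb in the 4 untreated control lists to 12.7 to 15.965 kb with TWEAK (1.70 ± 0.12 SE, limma, adjusted p = 3.15e-06). BIRC2 (1.09 ± 0.11 SE, limma, adjusted p = 2.48e-05) and BIRC3 (1.05 ± 0.12 SE, limma, adjusted p = 7.22e-05), the neighbouring genes of cIAP1 and cIAP2, share most of their windows. FAS, a death receptor, rose in covered length by 0.71 ± 0.15 (SE, limma, adjusted p = 0.00510). Its lengths were small, at 0.67 to 3.13 kb in untreated control lists and 2.70 to 4.53 kb with TWEAK. These ranges overlap each other and that of the Fn14 KO lists (1.565 to 3.88 kb). CASP2, encoding caspase-2, fell by 0.56 on the log2 scale (SE 0.08, limma, adjusted p = 0.000367), and BMF, a BH3-only gene, fell by 0.46 (SE 0.09, limma, adjusted p = 0.00426). Of the 47 genes tested, the difference from Fn14 KO cells in covered length was called for BCL2A1, BIRC2, BIRC3, TNFAIP3 and CASP2. Over all genes 4.93% were called, 2.70% with a larger effect in control cells. At start sites it was called for 12 of 38 genes with the larger effect in control cells and for CASP6 in the other direction. There 10.3% of all genes were called, 7.64% with a larger effect in control cells.

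The 3 genes whose covered length followed BCL2A1 most closely over the 16 lists, with windows that do not overlap its own, were PHF19 (Pearson r = 0.984), C5 (r = 0.984) and TRAF1 (r = 0.981). They are neighbours on chromosome 9 whose windows overlap each other, so they count as a single locus. Their windows were covered over 43.5 to 49.9 kb in TWEAK-treated control lists, over 17.3 to 25.0 kb in untreated control lists and over 17.2 to 24.8 kb in Fn14 KO lists. The correlations describe lists that share lines and treatments.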

How the data were processed

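H3K27ac ChIP-seq peak lists of 16 samples in 8 groups of 2 were analysed, grouped by their titles. Per the study's methods, trimming was by Trimmomatic and alignment to hg38 by Bowtie2. The authors called broad peaks per sample with MACS2 with input signal subtracted and removed blacklisted regions. Versions are not given in the sources used here. The deposited score and the deposited −log10 p-values and q-values came from the authors' peak caller. The deposited ratio, a fold enrichment over background, was used as written. Each peak carries a single value for its whole extent, and words such as tall and height refer to that value. Joining or splitting of peaks can move it, and how far this happened was not tested. Depth is unknown, and a weak region can be called in one list and missed in another.

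Covered length was tested as log2(bp + 1000) for 17915 genes with a peak in the window in at least 2 lists, and the highest fold enrichment on the log2 scale for 10570 start sites and 28337 consensus regions with a peak in all 16 lists. Every fit was limma 3.58.1 with 8 group means and a trended prior in R 4.3.3, Benjamini-Hochberg adjusted over all features, threshold 0.05. The code was tested on simulated data. A region present in both lists with TWEAK and absent from both without it was gained, and the reverse was lost. The members, gene lists, tests and alternatives were chosen with earlier results of these data known. All 9 members are named. From the wider list, up to 6 called genes with the largest TWEAK change in control cells were named. For the member with the largest change, the 3 genes most correlated with it were named. Regions were named if gained or lost in control cells of both lines, and otherwise the tallest of each member over all lists. At CFLAR that height came from TWEAK-treated control lists alone. Of those gained in both lines, 1 is not reported here. Other named regions of SOD2, XIAP, BBC3, BCL2, MCL1 and BCL2A1 were named after their values were seen. The MANE Select start, the fit without both untreated MDA-MB-231 Fn14 KO lists and the fit over regions were added after the data were seen. Gene models are GENCODE 44 and promoters are RefSeq.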

Additional observations from a re-analysis of the deposited data

Results flagged for a closer look

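By covered length and at record start sites, the TWEAK effect differed between control and Fn14 KO cells at 4 members (limma's test of the difference over all features). SOD2 also passed at its MANE Select start. In the fit over regions, 14 regions passed, among them regions in the windows of SOD2, XIAP and MCL1. At BCL2A1 the effects on covered length differed by 0.88 ± 0.11 (SE, log2, limma, adjusted p = 0.000853). At start sites they differed by 1.32 ± 0.15 for BBC3 (limma, adjusted p = 4.27e-07), by 0.55 ± 0.13 for BCL2L1 (limma, adjusted p = 0.00654) and by 0.36 ± 0.12 for CFLAR (limma, adjusted p = 0.0479). The CFLAR difference was called in 2 of 16 fits that each left out 1 list. The effect of Fn14 KO in untreated cells on start site enrichment differed between the lines (Hs578T minus MDA-MB-231) by 0.67 ± 0.17 for CFLAR (limma, adjusted p = 0.00376), 0.56 ± 0.19 for MCL1 (limma, adjusted p = 0.0206), 1.07 ± 0.18 for SOD2 (limma, adjusted p = 0.000135) and 0.63 ± 0.17 for XIAP (limma, adjusted p = 0.00763). The median of this difference over all 10570 start sites was 0.40. With values divided by the list median, it was called at CFLAR (0.51, limma, adjusted p = 0.0365) and SOD2 (0.91, limma, adjusted p = 0.00125), and not at MCL1 (0.40, limma, adjusted p = 0.127) or XIAP (0.47, limma, adjusted p = 0.0634). The SOD2 values are those of the ACAT2 promoter, where its gene record begins.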

How the results depend on the processing

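The lists hold no reads, so depth cannot be weighed and a peak missed in 1 list is no measure of absence. Replicate numbers did not pair the lists: deviations of same-numbered lists correlated at -0.004 to 0.17. With a replicate block the difference of TWEAK effects on covered length was called at 2 members instead of 1 (XIAP added), and no member lost a call. BCL2A1 and BBC3 kept their calls for TWEAK in control cells and for the difference in each of 16 fits that left out 1 list. The cause of the changes below was not tested.

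Counts of members called moved as follows. Scaled to the total covered length, 5 were called for TWEAK in control cells, 3 for the difference and 1 between lines. With the highest enrichment in the window in place of covered length, 2 were called for the difference, 4 for Fn14 KO and 5 between lines, and BCL2A1 was not called for TWEAK (0.12, limma, adjusted p = 0.360). At start sites, division by the list median left 2 for TWEAK and 1 for Fn14 KO. Any coding transcript start and the MANE Select start each left 1 for Fn14 KO. Without both untreated MDA-MB-231 Fn14 KO lists, 1 was left for the difference and 0 for Fn14 KO. Of regions, 10 were gained in Hs578T with peaks over at least 50% of the region and 5 with stronger peaks only, and 2 were lost in MDA-MB-231 under both. With lists trimmed to equal peak numbers 2 were lost in each line. With stronger peaks only (−log10 q no lower than the median of all lists together), BCL2L11 was at -0.36 for TWEAK in covered length (limma, adjusted p = 0.512). Without both untreated MDA-MB-231 Fn14 KO lists, SOD2 was at 0.23 for Fn14 KO at its record start (limma, adjusted p = 0.494).

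Leaving out 1 list at a time gave 1 to 4 members called for TWEAK in covered length, 1 to 3 for the difference, 0 for Fn14 KO and 0 to 1 between lines. At start sites it gave 1 to 4, 2 to 4, 0 to 3 and 2 to 5, in that order, and 0 for TWEAK in Fn14 KO cells by both measures. Gained regions numbered 7 to 8 in MDA-MB-231, against 3 to 7 in Hs578T, and lost regions 1 to 3 in each. The exact permutation test on kb, unadjusted, permuted TWEAK labels within each line and genotype. Its null is no TWEAK effect in any cells, so it does not test whether the effects of the genotypes are equal. For the difference in kb, the exact permutation test gave p = 0.0278 for CFLAR, 0.0309 for XIAP, 0.00463 for BCL2L11 and 0.0370 for BCL2A1. The exact permutation test gave p = 0.191 for BCL2, 0.157 for BCL2L1, 0.221 for MCL1, 0.278 for SOD2 and 0.653 for BBC3. The smallest p this exact permutation test can give is 0.00154.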
